A study of Mus musculus with 435 samples.

Results

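Gata4 is a zinc-finger transcription factor that the genital ridge needs in order to form. The cells described here are those of E10.5, the earliest embryonic day sampled (E for embryonic day). They were chosen by the level of Gata4 itself. A cell was called Gata4-positive where Gata4 reached 1 RPKM (reads scaled to transcript length and to the size of the library) and Gata4-negative below that. Values were at hand for 59 of the 64 labelled E10.5 cells, of which 29 were Gata4-positive and 30 Gata4-negative, out of 400 cells with values among the 435 of the whole series.

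All cells carried NR5A1-eGFP, a green reporter of Nr5a1, on a mixed background, and came from XY gonads of mouse embryos. The gonads were digested with trypsin and their cells sorted by green fluorescence, with Draq7 as the stain for dead cells. Single cells were taken on small Fluidigm C1 chips, amplified with the SMARTer kit and read as Nextera XT libraries, labelled at 25 M paired reads of 100 bases. The sort means that every cell, Gata4-negative ones included, was chosen for the reporter, and cells that never made it were not seen. E10.5 was 1 capture, and the number of embryos pooled in it is not given in the labels. Every later stage (from E11.5 up to E16.5) had 2 captures of the same genotype and sort, labelled at 10 M reads, or at 25 M for E13.5.

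Because the 59 cells came from 1 capture and Gata4 chose the classes, cells were not treated as replicates, and the E10.5 differences are given as values without a test. The same split was tested in the 8 later captures, which the choice of the E10.5 cells did not use.

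At E10.5 the genital ridge is a thickening of the coelomic epithelium, the layer that lines the body cavity, on the surface of the mesonephros, the transient embryonic kidney. Gata4 is known to be needed for this thickening and to act before Lhx9 and Nr5a1, both transcription factors of the gonad precursor. Wt1 and Emx2, which the early gonad shares with the kidney, are also made in neighbouring mesonephric cells, whereas Pax2, Pax8, Sall1 and Wnt4 are best known at this stage from nephric duct, tubules and nephrogenic tissue. Gata4 and its relatives bind the sequence GATA flanked by A or T on one side and A or G on the other.

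Gata4 lies on chromosome 14 (GRCm38, chr14:63198922-63271692, minus strand). The values that set the classes spread widely. Gata4 was listed at 0 in 18 cells and lay above 0 but under 1 RPKM in 12. The 29 Gata4-positive cells had a median of 18.9 RPKM and a highest value of 190, and 20 of them reached 10 RPKM. Few cells lay near the line: the nearest Gata4-negative cells had 0.898 and 0.574 RPKM, the nearest Gata4-positive cells 1.12 and 1.32 RPKM, and 4 cells in all fell between 0.5 and 2 RPKM. A value of 0 means that Gata4 was not detected in that cell at its depth.

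The classes had similar medians of library quality, but the cells with the fewest detected genes were mostly Gata4-negative. At least 5000 genes were detected in 28 of 29 Gata4-positive and 25 of 30 Gata4-negative cells. Gata4-positive cells had a median of 6440 detected genes (4634 to 7724) and Gata4-negative cells 6538 (3125 to 7780). The depth implied by the smallest steps of the values had a median of 8.24 M reads in Gata4-positive cells (2.52 to 9.95) and 7.74 M in Gata4-negative cells (2.51 to 11.2). Actb, a cytoskeletal gene of all cells, had a median of 7064 RPKM against 6397, and the translation factor Eef1a1 had 2754 against 2847.

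A gene was counted as past the size threshold where its log2(mean RPKM + 1) differed by at least 1 and its share of cells at 1 RPKM or more differed by at least 20 percentage points in the same direction. Of 10879 genes with a mean of at least 1 RPKM in either class, 254 (2.33%) were past it and higher in Gata4-positive cells, and 127 (1.17%) were past it and higher in Gata4-negative cells. The median gene differed by -0.01 in log2. These counts describe 1 capture, and how far the sampling of cells moves them was not tested. Among cells with at least 5000 detected genes (28 and 25 cells), 221 and 302 genes were past it, so the balance of the directions depended on the cells with fewer genes. Of 46 genes named here as past the threshold, 11 stayed past it under each of 13 other settings, and these were Lhx9, Upk3b, Podxl, Crb2, Wnt4, Rnf213, Hoxd8, Sept8, Tma16, Aatf and Six5. On this log2(mean + 1) scale the difference of a gene with low levels is understated.

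The stretches before 3 genes with large differences are shown as examples because Gata4 and its relatives bind GATA sites. The bases come from RefSeq on GRCm38.p6, run 5′ to 3′ on the gene's own strand up to its RefSeq start, and leave out bases of any exon in GENCODE M21. Capitals mark the motif AGATAA, the variant AGATAG, the variant TGATAA or the variant TGATAG on either strand, so a site on the other strand reads as its reverse complement. Lhx9 (minus strand) and Upk3b (plus strand), a uroplakin of the coelomic surface, were among the genes higher in Gata4-positive cells, and Pax8 (minus strand), a paired-box factor of the nephric lineage, had the largest log2 difference of the nephric genes in the other direction.
Lhx9 chr1:138842458-138842694: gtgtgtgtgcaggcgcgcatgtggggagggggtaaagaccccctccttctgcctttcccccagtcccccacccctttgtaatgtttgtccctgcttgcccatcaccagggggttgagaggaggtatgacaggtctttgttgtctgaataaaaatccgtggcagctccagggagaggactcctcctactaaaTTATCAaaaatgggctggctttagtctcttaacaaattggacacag
Upk3b chr5:136038246-136038495: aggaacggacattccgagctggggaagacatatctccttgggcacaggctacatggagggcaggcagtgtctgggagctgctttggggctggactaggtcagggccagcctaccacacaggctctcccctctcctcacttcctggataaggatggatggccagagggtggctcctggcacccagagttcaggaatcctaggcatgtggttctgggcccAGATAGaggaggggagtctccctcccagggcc
Pax8 chr2:24475600-24475849: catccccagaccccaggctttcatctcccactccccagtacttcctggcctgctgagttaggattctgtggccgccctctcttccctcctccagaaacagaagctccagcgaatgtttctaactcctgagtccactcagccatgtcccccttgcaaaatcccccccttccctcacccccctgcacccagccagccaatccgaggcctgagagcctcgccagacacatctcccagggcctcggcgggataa

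The stretch of Lhx9 held 1 site, which begins 59 bases before the RefSeq start, and lies in an intron of longer Lhx9 transcripts. That of Upk3b held 1 site 32 bases before the start and lies upstream of the gene. No match was found before Pax8, in a stretch that overlaps an intron of the predicted gene Gm13415. Over the whole RefSeq windows, 250 bases before to 50 after a start, 45 of 197 matched genes higher in Gata4-positive cells (22.8%) held a match, against 16 of 94 higher in Gata4-negative cells (17%) and 1718 of all 8252 compared genes with a window (20.8%). Of all 27025 genes with a RefSeq window, 33% held one. The share among genes higher in Gata4-positive cells was thus close to that of all compared genes. A match is a description of letters, not a bound site.

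Lhx9 and Nr5a1 had the largest differences in share of all genes past the threshold and named by the rule. Lhx9, a LIM-homeobox factor of the early gonad, was at 1 RPKM or more in 20 of 29 Gata4-positive cells (68.97%, exact 95% interval 49.2 to 84.7) and in 4 of 30 Gata4-negative cells (13.3%, 3.76 to 30.7). Its level ran from 0 through a median of 21.03 to 257 RPKM in Gata4-positive cells and from 0 through 0.016 to 102.3 RPKM in Gata4-negative cells. The ranges overlapped, with a log2 difference of 3.14 in favour of Gata4-positive cells. All exact intervals are for counting error only.

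Nr5a1, the nuclear receptor of gonadal and adrenal steroid-producing lineages whose reporter was sorted, was detected in 24 of 29 Gata4-positive cells (82.8%, 64.2 to 94.2) and in 9 of 30 Gata4-negative cells (30%, 14.7 to 49.4). It ran from 0 through 9.79 to 145 RPKM in Gata4-positive cells and from 0 through 0.404 to 91.5 RPKM in Gata4-negative cells, a log2 difference of 2.15. The eGFP transcript was found in 28 and 27 cells of the classes, so its shares were near each other. Its level ran from 0.166 through 684 to 3224 RPKM in Gata4-positive cells and from 0 through 132 to 4034 RPKM in Gata4-negative cells, a log2 difference of 1.53. Gata4-negative cells thus held the reporter transcript nearly as often, at a lower median and with Nr5a1 itself in fewer of them.

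**Figure D1:**
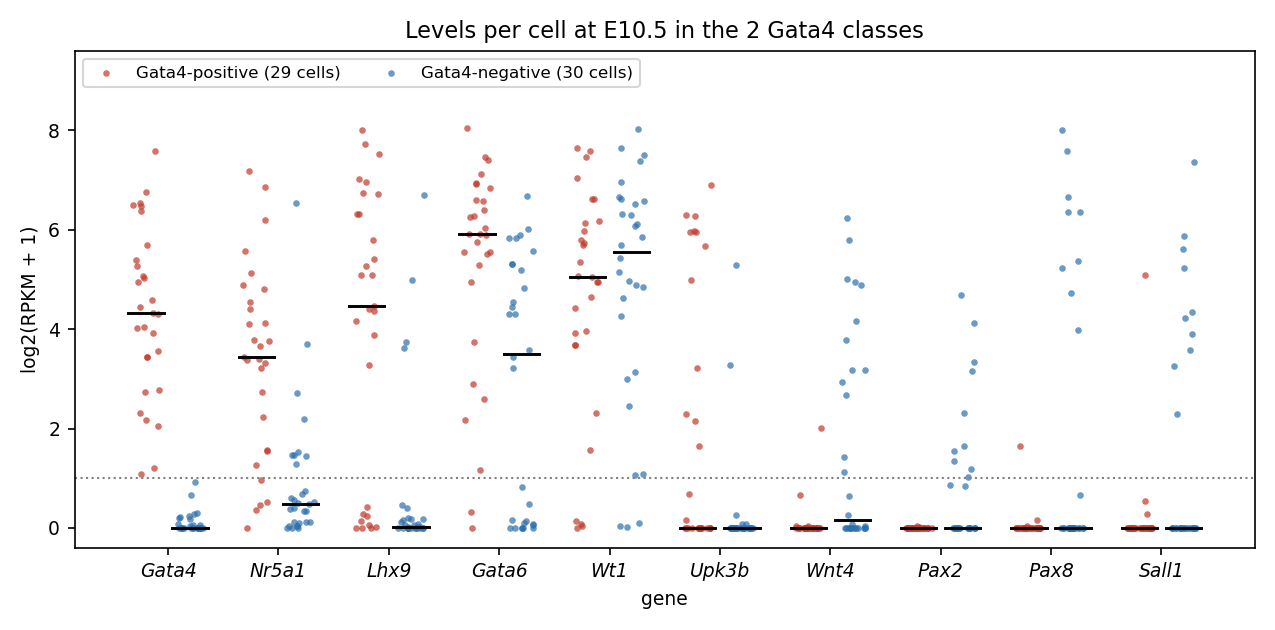
Each point is 1 cell, with log2(RPKM + 1) on the vertical axis, genes along the horizontal axis, black bars for medians and the dotted line at 1 RPKM; red marks the 29 Gata4-positive and blue the 30 Gata4-negative cells. Nr5a1, Lhx9 and Gata6 sit higher in red cells, Wt1 is spread alike, and Wnt4, Pax2, Pax8 and Sall1 are nearly all blue.

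Of the 12 compared transcription factors of the genital ridge, these 2 were past the threshold and none was past it in the other direction, against the 2.33% of all genes. The median member differed by 0.34. Wt1, a zinc-finger factor of gonad, kidney and mesothelium, was found in 25 of 29 Gata4-positive and 27 of 30 Gata4-negative cells. Its median was 32.3 RPKM (0 to 198) against 46.3 RPKM (0.018 to 261), and the groups overlapped over nearly their whole range. Emx2, a homeobox factor of the urogenital system, was in 15 against 10 cells, with means of 14.8 and 4.36 RPKM. The highest Gata4-positive cell had 315 RPKM of Emx2, beside a class median of 1.01 RPKM, so that mean leaned on few cells. With Gata4 at 5 RPKM or more against 0 the log2 difference of Emx2 was -0.30. Tcf21, a factor of visceral mesenchyme and gonadal stroma, was in 21 against 17 cells, with means of 58.3 and 24.5 RPKM. Both missed the 20-point line on share.

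Members at the extremes did not separate the classes. Nr2f2, an orphan nuclear receptor of mesenchyme, was at 1 RPKM or more in all 59 cells, with means of 271 and 238 RPKM. Nr0b1, a target and partner of Nr5a1 in gonad and adrenal, was at 1 RPKM or more in no cell of either class. Sox9, the Sertoli cell factor of later stages, was already present in 24 cells of each class, with a median of 45.9 against 20.46 RPKM.

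Gata4 was accompanied by other members of its family. Gata6, its closest relative in mesoderm and gonad, was found in 27 of 29 Gata4-positive cells (93.1%, 77.2 to 99.2) and in 17 of 30 Gata4-negative cells (56.7%, 37.4 to 74.5). It ran from 0 through 59.2 to 264 RPKM against 0 through 10.4 to 102.1 RPKM, a log2 difference of 1.70. Gata5, the third member of the cardiac and endodermal subfamily, was in 10 against 4 cells, with means of 14.3 and 2.06 RPKM. Zfpm1, also called FOG1, a cofactor that binds GATA factors, was in 8 against 1 cells at a low mean of 1.79 against 0.273 RPKM. Zfpm2 (FOG2), the cofactor through which Gata4 is known to act in the gonad, was in 9 against 3 cells, a difference of 21.03 points, but its log2 difference of 0.72 did not reach the threshold. Gata2, known from blood and mesenchyme, pointed the other way without passing, in 2 against 8 cells. Thus 3 of 6 compared members were past the threshold, all higher in Gata4-positive cells, beside 2.33% of all genes. Gata5 passed the share line by little, at 21.15 points. Zfpm1 reached a mean of 1 RPKM in Gata4-positive cells only, so the filter fixed its direction, and it dropped below the threshold in 4 of 12 other settings. At least 1 of Gata4, Gata5 and Gata6 was detected in 18 of the 30 Gata4-negative cells.

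The coelomic epithelium list gave 4 of 12 compared members past the threshold, all higher in Gata4-positive cells, beside 2.33% of all genes, with a median log2 difference of 1.21 beside -0.01 over all genes. Upk3b was found in 12 of 29 (41.4%, 23.5 to 61.1) against 2 of 30 cells (6.67%, 0.818 to 22.1). Where present in Gata4-positive cells it reached 118.8 RPKM, and the highest Gata4-negative cell had 38.3 RPKM. Lrrn4, a membrane protein of mesothelial cells, was in 12 against 3 cells, with a highest value of 59.4 against 2.08 RPKM. Podxl, the podocalyxin of apical surfaces, was in 12 against 3 cells, with means of 12.47 and 4.12 RPKM. Crb2, an apical polarity protein of the Crumbs family, was in 17 of 29 (58.6%, 38.9 to 76.5) against 4 of 30 cells (13.3%).

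The epithelial keratins leaned the same way without passing. Krt18 was in 16 against 13 cells with means of 131 and 34.5 RPKM, and Krt8 in 7 against 2 cells. Aldh1a2, the retinoic acid synthase of the coelomic lining, was in 26 against 19 cells. Msln and Muc16, markers of mature mesothelium, were listed at 0 in all cells. The summed log2(RPKM + 1) over the 18 list genes ran from 0.051 through 33.1 to 60.5 in Gata4-positive cells and from 0.039 through 14.8 to 46.5 in Gata4-negative cells, so the classes overlapped.

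Cell junction genes were mixed. Of 14 compared members 3 were past the threshold and higher in Gata4-positive cells, Crb2 among them, beside 2.33% of all genes, but the list's median of 0.10 was close to that of all genes. Dsp, the desmoplakin of desmosomes, was in 16 against 7 cells, with means of 14.3 and 3.63 RPKM. Jup, the plakoglobin that links cadherins to the cytoskeleton, was in 26 against 18 cells, with a median of 6.56 against 1.86 RPKM. Epcam, an adhesion protein of tubular and glandular epithelia, was in 1 against 4 cells and did not pass, with means of 0.942 and 19.6 RPKM.

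**Figure D2:**
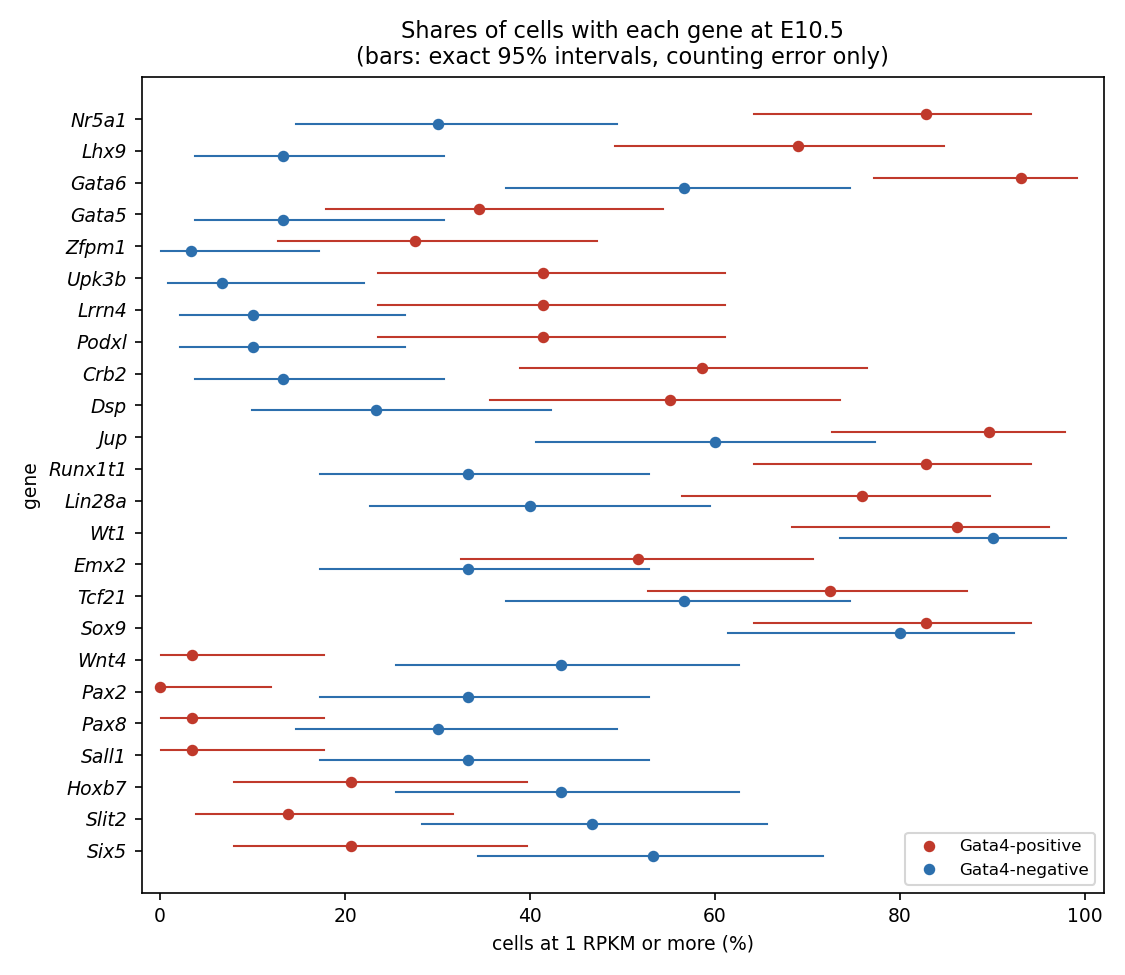
The horizontal axis gives the percentage of cells at 1 RPKM or more for each gene, in Gata4-positive (red, 29 cells) and Gata4-negative cells (blue, 30 cells), with exact 95% intervals for counting error. The intervals of Lhx9, Nr5a1, Gata6, Crb2, Runx1t1, Upk3b, Wnt4 and Pax2 do not overlap between the classes, and those of Wt1 and Sox9 nearly coincide. Wnt4, Pax2, Pax8 and Sall1 are more frequent in blue. Many of these genes were named by their difference in share, so a lack of overlap is no test.

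The remaining leading genes of Gata4-positive cells had varied roles. Runx1t1, a transcriptional corepressor, was in 24 of 29 (82.8%) against 10 of 30 cells (33.3%), with a median of 31.7 against 0.019 RPKM. Rnf213, a large ubiquitin ligase, was in 26 against 13 cells, with a median of 8.65 against 0.064 RPKM. Myrf, a membrane-bound transcription factor also made in the coelomic lining, was in 23 against 11 cells with a median of 12.1 against 0.369 RPKM. Angpt1, the Tie2 ligand angiopoietin-1, was in 17 against 4 cells and reached 211 against 143 RPKM.

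Pcolce, an enhancer of procollagen processing, was in 25 against 13 cells, and P4ha3, a prolyl hydroxylase of collagen, in 18 against 5. Col5a2, a fibrillar collagen chain, was in 14 against 3 cells, at low means of 3.47 and 0.319 RPKM. These 3 concern collagen, but of 15 compared matrix genes Col5a2 alone was past the threshold, beside 2.33% of all genes, and the list's median was 0.27. Lasp1, Tma16 and Sept8 completed the 12 leading genes, with differences in share of 42.4, 41.95 and 41.5 points.

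Further list members past the threshold were single. Nid2, a basement membrane nidogen, was in 21 against 14 cells, whereas Lama1, a laminin chain of the same list, was in 2 against 9. Foxc1, a forkhead factor of mesoderm, was in 19 against 13 cells. Hoxd8 was in 15 against 5 cells and Hoxb7 in 6 against 13, so the HOX list held 1 member each way. Lin28a, the RNA-binding protein that blocks let-7, was in 22 of 29 (75.9%) against 12 of 30 cells (40.0%), with a median of 32.5 against 0 RPKM, while its relative Lin28b was in 10 against 13. Kdm3a, a histone demethylase needed for full Sry expression, was in 19 against 12 cells.

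Gata4-negative cells were set apart by genes of the nephric lineage. Wnt4, a secreted ligand of kidney tubule formation and later of the ovary, was in 1 of 29 Gata4-positive (3.45%, 0.087 to 17.8) and 13 of 30 Gata4-negative cells (43.3%, 25.5 to 62.6). It stayed at or below 3.01 RPKM in Gata4-positive cells and reached 74.6 RPKM in Gata4-negative cells, a log2 difference of -3.20. Pax2, the paired-box factor of nephric duct and tubules, was in 0 of 29 cells (exact upper limit 11.9%; 3 cells of 29 would be 10.3%) against 10 of 30 (33.3%, 17.3 to 52.8), with a highest value of 24.9 RPKM. Pax8 was in 1 against 9 cells and reached 2.16 against 257 RPKM, a log2 difference of -4.73. Sall1, a zinc-finger factor of nephrogenic mesenchyme, was in 1 against 10 cells and reached 33.1 against 163 RPKM.

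These 4 genes sat in a part of the Gata4-negative class. They were named because they passed the threshold in these cells, so counts that join them follow in part from that choice. At least 1 of the 4 genes was found in 3 of 29 Gata4-positive cells (10.3%, 2.19 to 27.4) and in 20 of 30 Gata4-negative cells (66.7%, 47.2 to 82.7). Pax8 and Wnt4 were found together in 0 against 7 cells. Of the 9 compared nephric and mesonephric markers 3 were past the threshold and higher in Gata4-negative cells, beside 1.17% of all genes, and the list's median was -2.28. Lhx1, a LIM-homeobox factor of the nephric duct, was in 0 against 5 cells, and Eya1 in 0 against 5. Gata3, a duct factor that is also in this list, went the other way without passing, in 12 against 9 cells, and Ret, a duct receptor, was in 0 against 1.

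Counted per cell, 8 of 30 Gata4-negative cells (26.7%, 12.3 to 45.9) and 0 of 29 Gata4-positive cells carried at least 3 nephric markers at 1 RPKM or more. The summed log2(RPKM + 1) of this list ran from 0 through 4.58 to 34.6 in Gata4-negative cells and from 0 through 2.23 to 7.21 in Gata4-positive cells. Pax2, Pax8, Sall1 and Lhx1 are in the list that chose these 8 cells, so their counts here follow in part from that choice. All 8 of these cells had Pax2 and Wt1, 7 had Pax8, 6 had Sall1, 6 had Wnt4 and 5 had Lhx1. None had Lhx9 or Upk3b, and 1 had Gata6. Their eGFP ran from 0 through 90.4 to 1124 RPKM, and 7 of the 8 had it at 1 RPKM or more.

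The other 22 Gata4-negative cells were closer to the Gata4-positive class in Gata6 but not in Lhx9 or Nr5a1. Gata6 was in 16 of these 22 cells (72.7%, 49.8 to 89.3), Nr5a1 in 7 (31.8%, 13.9 to 54.9), Lhx9 in 4 (18.2%, 5.19 to 40.3) and Upk3b in 2. Wt1 was in 19 and Wnt4 in 7 of them. When the 8 cells were left out, a choice made after their values were seen, the log2 difference of Lhx9 was 2.75, of Nr5a1 1.84, of Gata6 1.35, of Upk3b 2.68 and of Wnt4 -2.86, all still past the threshold. Pax8, at -2.53, Sall1, at -0.52, and Rdh10, at -0.68, were then no longer past it. Nor were Hoxb7, at -2.16, Lama1, at -0.60, and Mlst8, at -0.96. Pax2, at -0.28, and Dach1, at 0.04, fell under a mean of 1 RPKM in both classes and were no longer compared. For Pax2, Pax8 and Sall1, members of the list that chose the 8 cells, these losses follow in part from that choice. Of the genes higher in Gata4-positive cells, Runx1t1, at 0.84, Angpt1, at 0.95, P4ha3, at 0.81, Pcolce, at 0.65, and Nid2, at 0.75, also dropped below it. Emx2 came past it, with the Gata4-positive cell at 315 RPKM still included. In all, 342 genes were higher in Gata4-positive and 129 in Gata4-negative cells.

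Genes were also counted together in the same cells. Nr5a1 and Lhx9 were picked for their large differences in share, so their joint count follows in part from that choice and is no separate support. Nr5a1 and Lhx9 were found together in 19 of 29 Gata4-positive cells (65.5%, 45.7 to 82.1) and in 1 of 30 Gata4-negative cells (3.33%, 0.084 to 17.2). The same 19 and 1 cells also had Wt1 and Gata6. Pax8 and Lhx9 met in 1 of the 59 cells, a Gata4-positive one in which Pax8 was at 2.16 RPKM.

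Gata4-positive cells were not uniform. Of the 20 with Lhx9, 19 had Nr5a1, 20 had Gata6, 20 had Wt1 and 18 had Tcf21. Of the 9 without Lhx9, 5 had Nr5a1, 7 had Gata6, 5 had Wt1 and 3 had Tcf21. The median Gata4 level was 27.3 RPKM (1.12 to 190) in the former and 14.2 RPKM (3.12 to 50.7) in the latter, ranges that overlapped, and the median of detected genes was 6714 against 5997. The 12 Gata4-positive cells with Upk3b held Lhx9 in 11, Podxl in 10, Krt18 in 10 and Bnc1, a zinc-finger factor of surface epithelia, in 7. Among the other 17 these were found in 9, 2, 6 and 1. Other genes of the list did not follow: Krt8 was in 3 of the 12 and 4 of the 17, and Aldh1a2 in 11 and 15. The cells with Upk3b also had more detected genes, with a median of 6790 against 5997, whose part in these counts was not tested.

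Gata4-negative cells with a trace of Gata4 were also set beside those at 0, in small counts and without a test. Of the 12 cells above 0, Nr5a1 was found in 6 and Lhx9 in 3. Of the 18 cells at 0, Nr5a1 was in 3 and Lhx9 in 1. Wt1 went the other way, in 9 of 12 against 18 of 18. Wnt4 was in 6 of 12 against 7 of 18, and at least 3 nephric markers were carried by 3 of 12 against 5 of 18. The median of detected genes was 6422 against 6578.

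The other leading genes of Gata4-negative cells did not belong to the nephric list. Slit2, a secreted guidance ligand known from nephric duct budding, was in 4 against 14 cells, with a log2 difference of -2.40 that turned to 0.17 when cells with any Gata4 were set against those at 0. Dach1, a partner of Eya factors, was in 2 against 12 cells. Its log2 difference went from -1.72 to 0.04 without the Gata4-negative cells that carried at least 3 nephric markers. Six5, a homeobox gene, was in 6 against 16 cells with means of 2.48 and 15.5 RPKM. Aatf, a nucleolar factor, was in 4 against 15 cells. Pcgf1, a Polycomb group protein, was in 3 against 14 cells. Adnp2, Mlst8, Mrps31, Zfp395 and Trp53bp2 were further leading genes, with differences in share of -36.2, -36.1, -35.9, -35.9 and -35.5 points.

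Members of other lists also passed in this direction. Rdh10, a retinol dehydrogenase on the way to retinoic acid, was in 2 against 10 cells and reached 8.31 against 99.3 RPKM. Por, the electron donor of cytochrome P450 enzymes, was in 10 against 19 cells. It was the only one of 11 compared adrenal and steroid genes past the threshold, beside 1.17% of all genes. Cyp11a1 and Cyp17a1, which make steroids in later Leydig cells, were at 1 RPKM or more in no E10.5 cell. Of 4 compared pro-ovarian genes Wnt4 alone passed, beside 1.17% of all genes. All 4 had lower means in Gata4-positive cells, with a median of -1.53, as did 5489 of all 10879 genes, with a median of -0.01 over all genes.

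**Figure D3:**
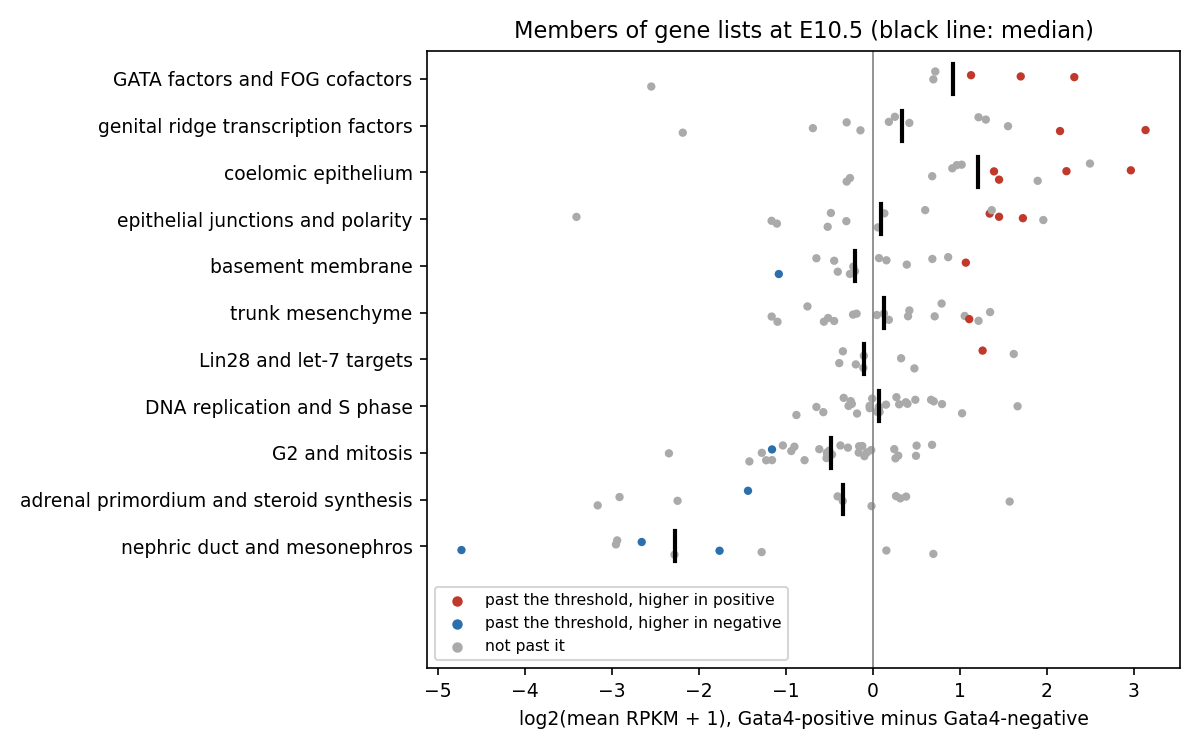
Each point is 1 gene of a list, placed by its difference in log2(mean RPKM + 1), with red and blue for genes past the threshold in either direction, grey for the others and a black line at the list median. The coelomic epithelium list (median 1.21) and the nephric list (median -2.28) lie on opposite sides of 0. The GATA list has a median of 0.93, and most other medians drawn are nearer to 0. Only some lists are drawn, and the pro-ovarian (median -1.53) and Notch lists (median -1.49) are not among them.

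Cell cycle lists held almost no gene past the threshold, beside 2.33% and 1.17% of all genes in the 2 directions. None of 26 compared replication and S phase genes passed, with a median of 0.07. Of 30 genes of G2 and mitosis 1 passed, Bub1b, a spindle checkpoint kinase found in 11 against 18 cells. Lower means in Gata4-positive cells were seen for 24 of the 30, with a median of -0.48. Over all genes 5489 of 10879 had lower means in them. Of 10 compared Notch genes none passed and 9 had lower means in Gata4-positive cells, with a median of -1.49 beside -0.01 over all genes. The ligand Jag1 was in 6 against 12 cells with means of 4.70 and 69.4 RPKM, and missed the share line by a little at 19.3 points. Without the Gata4-negative cells that carried at least 3 nephric markers, the log2 difference of Jag1 went from -3.63 to -0.43. That of the receptor Notch2 went from -1.07 to -0.62.

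Markers of other cell types the sort could have let through were scarce. No cell carried 3 markers of the endothelium, erythroid, macrophage or neural crest list, and 1 Gata4-positive cell carried 3 of the germ cell list. Pecam1, Cdh5 and other endothelial genes reached at most 1 marker a cell. Of the germ cell list, Dppa3, Dazl and Pou5f1 were listed at 0 in all cells. The smooth muscle list reached 3 markers in 7 Gata4-positive cells and 1 Gata4-negative cell. Its summed log2(RPKM + 1) ran from 0 through 6.89 to 22.03 against 0 through 5.91 to 14.4, and its part in the differences was not tested. Without the cell with germ markers, 255 and 148 genes were past the threshold.

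Gata4-positive cells made up a larger share of several later captures. The share was 49.2% at E10.5 (35.9 to 62.5), 48.1% and 65.9% in the E11.5 captures, then 56.7% and 86.5% in those of E12.5. It was 89.3% and 69.6% in the E13.5 captures and 83.9% and 67.6% in the E16.5 captures. The captures of 1 stage differed, most at E12.5. Depth labels also differ between these captures, and no test across stages was made.

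**Figure D4:**
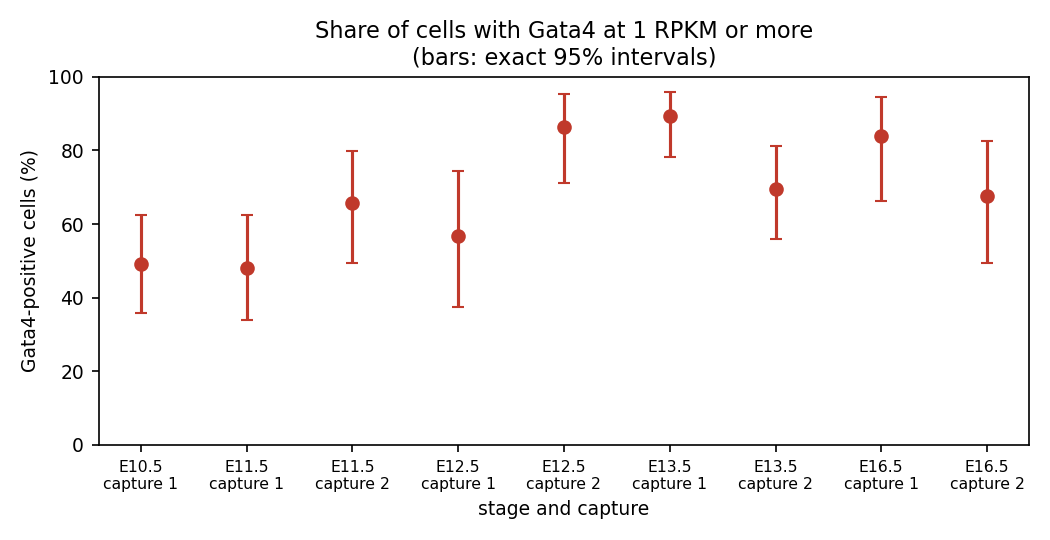
Points give the percentage of cells with Gata4 at 1 RPKM or more in each of the 9 captures, with exact 95% intervals. The E10.5 capture and the first E11.5 capture lie near 48 to 49%, and the interval of the first E13.5 capture (89.3%) lies above both.

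The second question was whether the same split of cells goes with the same genes later. In each of the 8 captures of E11.5 to E16.5 the mean RPKM of Gata4-positive and of Gata4-negative cells was taken, and the difference was fitted with limma with the capture as a block. P-values were adjusted over 12724 genes by Benjamini-Hochberg. At an adjusted p under 0.05, 65 genes (0.511%) were higher and 7 (0.055%) were lower in Gata4-positive cells, and 1801 had an unadjusted p under 0.05. The median gene was higher by 0.29 in Gata4-positive cells, which in each later capture also had more detected genes than Gata4-negative cells, such as a median of 5344 against 4679 in the first E11.5 capture. When cells were matched on detected genes, the median difference was close to 0 and Spp1 was the 1 gene called. The same matching at E10.5 gave 284 and 175 genes past the threshold. The later counts also rested on single captures: without the first E13.5 capture 8 genes were higher and 0 lower (limma, 1469 at an unadjusted p under 0.05), and without the second E12.5 capture 129 and 11.

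Of 16 tested testis determination genes 2 rose in Gata4-positive cells of the later captures, and of 14 adrenal and steroid genes 3, beside 0.511% of all genes; these were Sox9, Dmrt1, Cyp11a1, Hsd3b1 and Cyp17a1. Sox9 rose by 2.95 ± 0.46 in log2 (SE, 8 captures, adjusted p = 0.0154, limma), was higher in 8 of 8 captures, and averaged 92.2 ± 39.6 against 16.6 ± 17.2 RPKM (SD). Spp1, an osteopontin gene, rose by 5.43 ± 0.52 (adjusted p = 0.00033), from 3.20 ± 8.21 to 90.03 ± 47.1 RPKM. The steroid genes Cyp11a1, by 4.74, and Hsd3b1, by 5.16, rose too, as did Dmrt1, a testis factor, by 2.53, and Cyp17a1, by 4.07. Without 1 capture at a time Spp1, Cyp11a1 and Hsd3b1 were called in 8 of 8 fits, Dmrt1 in 7 and Cyp17a1 in 2. At E10.5 Sox9 differed by 0.81 and Spp1 by 0.58, neither past the threshold. Sox9 was called in 6 of 8 such fits, and missed the threshold without the first E12.5 (adjusted p = 0.0502) or the first E13.5 capture (adjusted p = 0.0527, limma). It also missed it with no filter on low values (adjusted p = 0.132), in the captures labelled 10 M reads (0.152) and in the E11.5 captures alone (0.542). With cells matched on detected genes the differences were 2.71 for Sox9 (adjusted p = 0.216) and 2.04 for Cyp11a1 (adjusted p = 0.732).

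Few listed genes fell in Gata4-positive cells of the later captures: 1 of 19 trunk mesenchyme genes and 2 of 19 genes of fibrillar collagen and interstitial matrix, beside 0.055% of all genes. Nr2f2, the trunk mesenchyme gene, was also 1 of 14 tested genital ridge transcription factors, of which 1 other, Dmrt1, rose. Nr2f2 fell by 1.04 ± 0.19 (adjusted p = 0.0293, limma, lower in 8 of 8 captures), from a mean of 240 ± 51.4 RPKM (SD) in Gata4-negative cells. Cdh11, a mesenchymal cadherin, fell by 1.28, Plagl1, an imprinted growth regulator, by 1.95, and the matrix genes Dcn and Lum by 1.58 and 2.54. At E10.5 Nr2f2 differed by 0.19 and Cdh11 by 0.04. These calls were fragile: without 1 capture at a time Nr2f2, Cdh11 and Plagl1 were each called in 1 of 8 fits and Dcn and Lum in 2. With cells matched on detected genes none of these genes was called, and Nr2f2 differed by -0.77 (adjusted p = 0.534).

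The ridge and coelomic genes that separated the E10.5 classes were mostly not called later. Nr5a1 was higher in 7 of 8 captures, by 1.99 ± 0.49, with an adjusted p of 0.0831 (limma), which misses the threshold, and eGFP by 1.97 ± 0.46 (adjusted p = 0.106). Without the second E12.5 capture, the 1 capture with lower Nr5a1 in Gata4-positive cells, the adjusted p was 0.00596 for Nr5a1 and 0.0398 for eGFP (limma), and without the second E13.5 capture it was 0.0434 for eGFP. Other settings also called them: Nr5a1 had an adjusted p of 0.0296 with Gata4 at 5 RPKM or more against 0, 0.0121 with means of log2 values and 0.015 with at least 10 cells of each class. For eGFP it was 0.0036 and 0.0037 under the first 2 of these, and 0.0077 with Gata4 above 0 against 0. With cells matched on detected genes neither was called (limma): Nr5a1 differed by 1.49 (adjusted p = 0.706) and eGFP by 1.49 (adjusted p = 0.564). In the captures labelled 10 M reads the adjusted p was 0.327 for Nr5a1 and 0.152 for eGFP, and in the E11.5 captures alone 0.343 and 0.207. Gata6 was higher in 7 of 8 captures, by 1.43 ± 0.49 (adjusted p = 0.202, and 0.0113 with means of log2 values, limma). Lhx9 differed by 0.57 ± 0.40 (adjusted p = 0.544), with captures from -0.90 to 2.22, and Upk3b by 0.26 ± 0.60 (adjusted p = 0.883). For Wt1 the difference was 0.03 ± 0.22. At the settings used throughout, no member of the GATA or the coelomic list was called.

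The nephric genes showed no called difference in the later captures either. Pax8 differed by -0.63 ± 0.42 (adjusted p = 0.516) and Wnt4 by -0.69 ± 0.55 (adjusted p = 0.599), and Pax2 was under the level needed for the fit. Pax8 in Gata4-negative cells averaged 3.22 ± 4.77 RPKM over the later captures, beside 27.6 RPKM at E10.5. Runx1t1 and Angpt1, higher in Gata4-positive cells at E10.5, had later differences of -0.99 ± 0.51 (adjusted p = 0.408) and -1.19 ± 0.53 (adjusted p = 0.322). Whether E10.5 differs from the later captures was not tested, since it has 1 capture.

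All genes past the E10.5 threshold were then looked up in the later fit. Of the 254 genes higher in Gata4-positive cells 251 were tested later, of which 4 (1.59%) were called higher and 0 lower, beside 0.511% and 0.055% of all genes. Their median later difference was 0.33, beside 0.29 for all genes, and 173 of 251 (68.9%) lay above 0, beside 70% of all genes. The 4 were Cst9, a cystatin known from Sertoli cells, Asns, the asparagine synthetase, Nthl1, a DNA glycosylase, and Dsc2, a desmosomal cadherin. They were named because of this count. Of 125 tested genes higher in Gata4-negative cells none was called, at a median of 0.36, with 85 (68%) above 0.

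The values of these 4 genes follow, at E10.5 as cells and later as levels. Cst9 was in 12 against 4 cells at E10.5 and rose by 5.28 ± 0.94 later (adjusted p = 0.031, limma, higher in 7 of 8 captures). Asns was in 18 against 8 cells and rose by 2.59 ± 0.49 (adjusted p = 0.031, higher in 8 of 8). Nthl1 was in 12 against 4 cells and rose by 2.91 ± 0.55 (adjusted p = 0.0304, higher in 8 of 8). Dsc2 was in 10 against 1 cells and rose by 2.17 ± 0.46 (adjusted p = 0.0483, higher in 8 of 8), though no fit without 1 capture called it. Of the same 8 fits, Cst9 was called in 3, Nthl1 in 2 and Asns in 1, and none of the 4 was called with cells matched on detected genes.

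**Figure D5:**
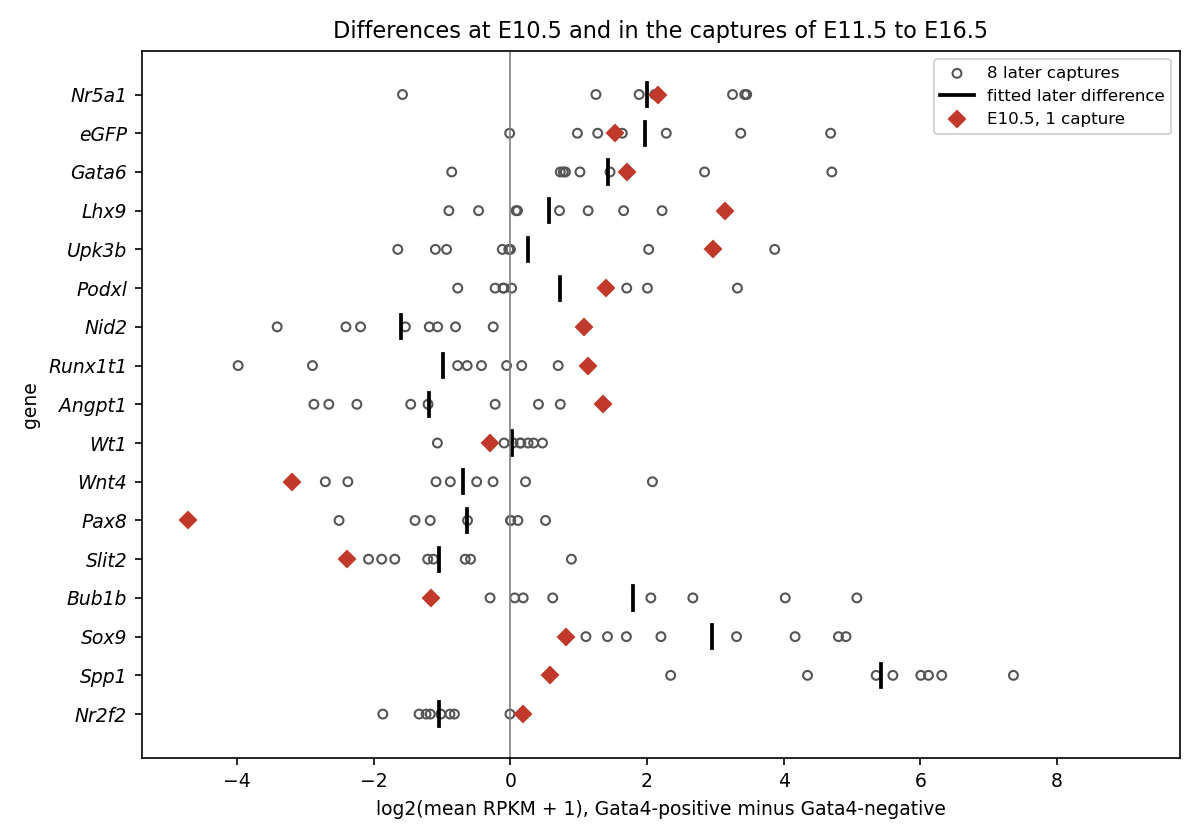
Open circles are the log2 differences in the 8 captures of E11.5 to E16.5, black bars the fitted later differences and red diamonds the single E10.5 values. Lhx9, Upk3b, Wnt4 and Pax8 have E10.5 values far from 0 and later captures on both sides of it, Nid2 has its E10.5 value above 0 and all 8 later captures below, and Sox9 and Spp1 are above 0 in all 8.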

How the data were processed

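Single-cell values deposited by the authors are RPKM, read from the values themselves. The submitters' processing notes name GRCm38.p3 and mm10, and aligner, counting tool and annotation were not given in the sources used here. About 69% of low values were whole multiples of a step, which does not give back counts, and the test for normalized values was chosen. Values for 35 labelled cells were not analysed here. Cells under 3000 genes (3, all later) were left out, and 2 near-identical E12.5 cells were averaged.

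At E10.5, class means, ranges and shares were taken, with exact (Clopper-Pearson) intervals and no test. In later captures with at least 5 cells of each class, log2(mean RPKM + 1) was fitted with limma 3.58.1 in R 4.3.3 (trend, robust), capture as block, for genes with a mean of at least 1 RPKM in at least 2 class means, and Gata4 left out. Nothing says that captures came from separate litters, so p-values measure the spread between captures. Both steps were tested on simulated data.

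Named genes were the 12 with the largest share difference each way at a mean of at least 5 RPKM, up to 4 members of each list past the threshold (otherwise up to 2 with values), fixed ridge markers, and in later captures the 8 largest called changes each way of 1 direction in every capture. Other names were added after their values were seen. Some genes that the rule names are not reported here. Members and gene lists were chosen with earlier results of these data known. Other cuts, scalings, filters, pseudocounts, cell sets and captures were tried, and the closing section gives their effect.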

Additional observations from a re-analysis of the deposited data

Results flagged for a closer look

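In 4 of 62 named genes 1 of the 8 later captures lay far from the other 7 in its difference between Gata4-positive and Gata4-negative cells, and chance alone gives about 1 in 20. Col5a2 differed by 2.02 in the second E12.5 capture and by -2.66 to -0.48 in the others. Nr5a1 differed by -1.58 in the same capture, which has 5 Gata4-negative cells, and by 1.25 to 3.46 in the others. Without that capture the adjusted p of Nr5a1 in the limma fit was 0.00596. In the second E16.5 capture Lasp1 differed by -2.75 (others 0.20 to 1.28) and Wt1 by -1.07 (others -0.09 to 0.47).

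Nid2, the basement membrane nidogen, was higher in Gata4-positive cells at E10.5 by 1.07, and lower in them in all 8 later captures, by 1.61 ± 0.41 on average (-1.61, adjusted p = 0.0889, and 0.0122 with means of log2 values, limma). The difference between E10.5 and the later captures was not tested.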

How the results depend on the processing

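No paired analysis was possible because replicate numbers in the labels only name cells; the capture was already a block in the later fit. At E10.5, 254 genes were higher in Gata4-positive and 127 in Gata4-negative cells. With Gata4 at 5 RPKM or more against 0 these counts were 464 and 239, with Gata4 above 0 against 0 the second was 195, and among cells with at least 5000 genes it was 302. The difference of Slit2 turned to 0.17 with Gata4 above 0 against 0. In the later captures (limma), 65 genes were higher and 7 lower. Means of log2 values gave 261 and 34, no filter 9 and 0, matched cells 1 and 0, and captures labelled 10 M reads 5 and 0. The E11.5 captures alone gave 0 and 0, with 850 genes at an unadjusted p under 0.05, on 2 captures. The lower count was 4 with Gata4 above 0 against 0, which also left 5 of 8 captures, 13 with a filter at 5 RPKM, 13 with median-ratio scaling, 3 without cells of other types and 0 without the trend. Means of log2 values also called Nr5a1, eGFP, Gata6 and Nid2. Leaving out 1 capture at a time gave 8 to 129 higher and 0 to 11 lower. The unadjusted counts beside these 0s ran from 850 to 1914. Median-ratio scaling put the median gene at -0.07 at E10.5 and 0.21 later, beside -0.01 and 0.29. With Gata4 above 0 the Gata4-positive share was 69.5% for E10.5, 73.1% and 82.9% for the E11.5 captures, 83.3% and 97.3% for those of E12.5, 100% in the first E13.5 and 96.8% in the first E16.5 capture. The causes were not tested. Transcripts missed at this depth limit every share, since a cell listed at 0 may hold the gene.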
